A study of Homo sapiens with 8 samples.

Results

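The 41 genes described here code for regulators of pre-mRNA splicing: SR and SR-like proteins (12 genes), hnRNP A/B proteins (5), hnRNP C, M, R and U proteins (5), hnRNP F/H proteins (4), poly(C)-binding KH proteins (3), hnRNP L and PTBP proteins (4), and cell type-restricted and other regulators (8). They were chosen by gene symbol, and every probe whose RefSeq accession maps to 1 of these symbols was taken. All 41 had at least 1 probe, giving 71 probes among the 42405 non-control probes of the array and 41 of the 20249 genes that could be named. The cells were KYSE850, a human esophageal squamous cell carcinoma (ESCC) line. Both groups were transfected with siRNA, 4 with control siRNA and 4 with siRNA against KHSRP, a KH-domain RNA-binding protein known for its roles in splicing, in decay of AU-rich mRNAs and in microRNA maturation. Neither the siRNA sequence used nor whether the replicates were separate cultures is given in the labels, so p-values measure the spread among these samples, which may be technical. Expression was read on 1-colour microarrays, 1 sample per array.

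SR proteins carry arginine- and serine-rich domains, bind enhancer sequences in exons and help to recruit the spliceosome. Proteins of the hnRNP families coat nascent transcripts and often act against exon inclusion, so the balance between the families shapes alternative splicing. Many SR protein and hnRNP genes also splice their own transcripts into nonproductive forms, and several have numerous processed pseudogenes, so that 2 probes of 1 gene can report different RNAs. Each level below is the log2 of a probe's processed signal minus the 75th percentile of its array, and is comparable between arrays for 1 probe but not between probes. A difference is the mean level with KHSRP siRNA minus the mean level with control siRNA, and a probe was called when its limma p-value, adjusted by Benjamini-Hochberg over all 18761 probes tested, was under 0.05.

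KHSRP itself was read by 2 probes. At the brighter one, A_23_P16157, control siRNA arrays averaged 6.08 ± 0.24 (SD, n = 4) and KHSRP siRNA arrays 2.71 ± 0.19 (n = 4), a log2 difference of -3.37 (SE 0.155, limma adjusted p = 5.95e-05), which is 9.66% of control. The 2 groups did not overlap, and the exact two-sided permutation test over the 8 arrays gave p = 0.0286, the smallest value that 4 against 4 arrays allow. Between 19145 and 20938 of the 42405 probes on an array were well above background. All 10 squamous epithelial markers examined were detected on all 8 arrays, as were COL1A1 of the 6 fibroblast markers and CD68 and CD14 of the leukocyte markers, while PTPRC was so on 4 arrays and CD3E on 5, and the other 5 fibroblast and all 4 endothelial markers were well above background on no array. Of these 10 markers, 8 divided each group of 4 in the same way. KRT5, a basal keratin and 1 of the 8, was at 5.84, 4.30, 5.84 and 3.11 on control siRNA replicates 1 to 4 and at 5.92, 4.46, 2.92 and 5.98 on KHSRP siRNA replicates 1 to 4. Control replicates 1 and 3 and KHSRP siRNA replicates 1 and 4 were thus high, and the other 4 arrays low. EPCAM ran the opposite way in both groups, at 4.20, 4.56, 3.68 and 4.71 with control siRNA and 3.88, 4.33, 4.52 and 3.66 with KHSRP siRNA. CDH1 did not follow this order among the controls, and was higher by 0.55 on the KHSRP siRNA arrays without overlap (adjusted p = 0.135). No fit took this division as a term, and its part in the results below was not tested.

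Of the 71 probes, 69 were tested. The exceptions were 2 of the 3 probes of QKI, a STAR-family RNA-binding protein, which were too dim in both groups. Among the 69, 8 were called lower with KHSRP siRNA, or 11.6%, against 3.62% of all tested probes called lower. None was called higher, against 1.92% of all tested probes. An unadjusted limma p under 0.05, in either direction, was found at 23 of the 69. No such count was made over all tested probes, so the 23 cannot be set against a background. The called probes belonged to 7 genes: SRSF7, SRSF4, PTBP3 (2 probes), HNRNPA3, HNRNPA1, HNRNPC and SRSF3. The level was below control at 55 of the 69 probes (79.7%), compared with 48.2% of all tested probes. The median difference over the members' probes was -0.19, beside 0.01 over all tested probes. With each gene taken once, by its brightest tested probe, the medians were -0.16 for the 41 members and 0.01 for all 12125 genes tested, and 3 of the 41 members (7.32%) were called lower, compared with 4.06% of all genes.

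**Figure D1:**
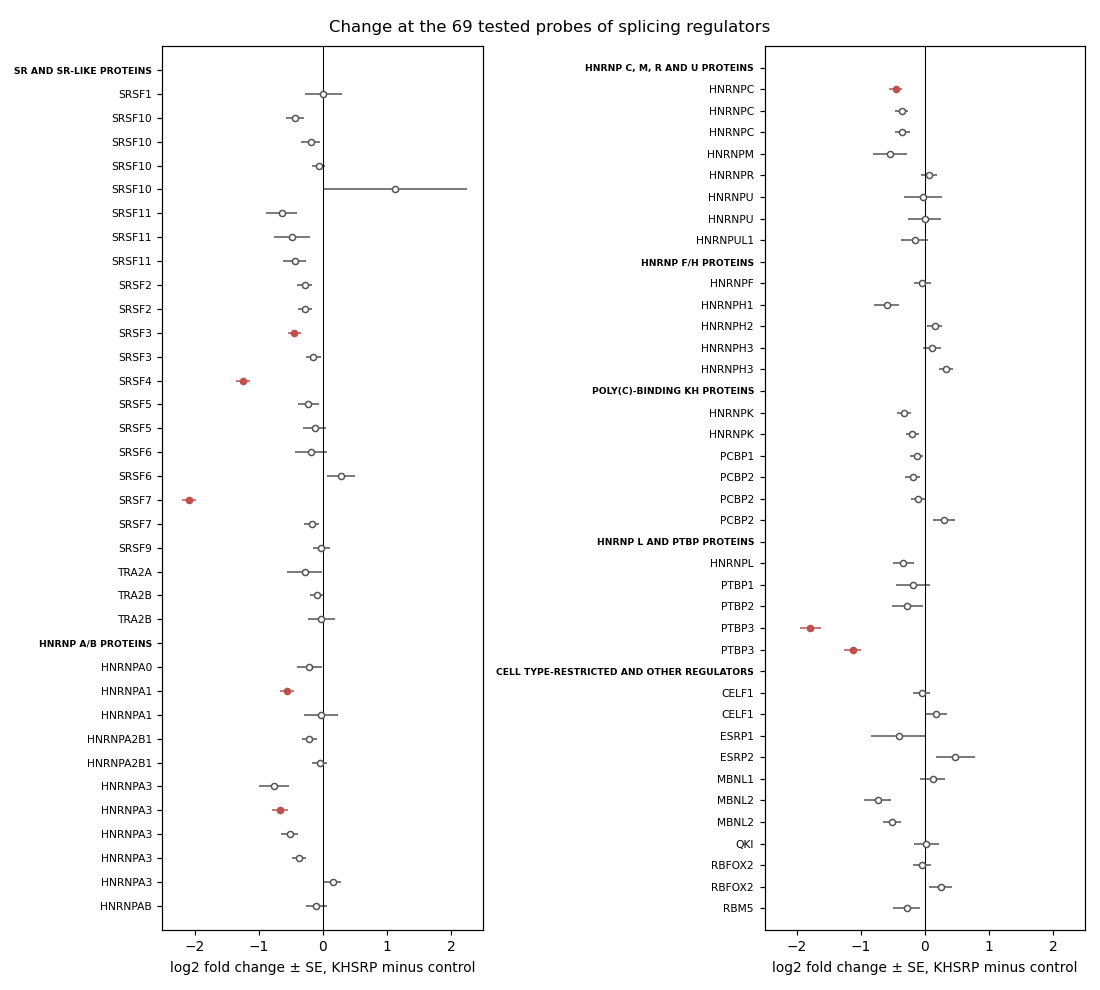
Each row is 1 of the 69 tested probes, labelled with its gene and grouped by protein family. Points give the log2 fold change (KHSRP siRNA minus control siRNA, 4 arrays each) and bars its SE, and the 8 filled red points are the called probes. Most points lie left of 0, and the called ones range from -2.08 at SRSF7 to -0.44 at SRSF3.

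The replicate numbers bear on how many members are called. The scanner files and the authors' own value table disagree on which KHSRP siRNA array is replicate 3 and which is replicate 4. With the numbers of the value table used as a block, 26 member probes were called lower (37.7%) and 4 higher (5.80%), beside 15.3% and 14.8% of all tested probes. With the numbers of the scanner files, 4 were called lower, those of SRSF7, SRSF4 and PTBP3, and none higher. Over all 18761 tested probes, 126 were called lower with these numbers, and 156 in either direction. The 4 probes of SRSF7, SRSF4 and PTBP3 were also called when any 1 of the 8 arrays was left out.

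For the called genes, the 100 bases upstream of the annotated transcription start are given from RefSeq (GRCh38.p14), which lists 6 of the 7, with 2 starts for SRSF7. They are shown as a description of the called genes only, since transcription was not measured and shared control was not tested. Capitals mark 3 core promoter motifs searched on both strands: the GC box GGGCGG, the CCAAT box CCAAT and the TATA box TATAAA.
SRSF7, first window (chr2:38751362-38751461, minus strand): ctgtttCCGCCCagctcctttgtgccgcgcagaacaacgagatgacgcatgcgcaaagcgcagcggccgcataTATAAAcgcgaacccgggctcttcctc
SRSF7, second window (chr2:38751495-38751594, minus strand): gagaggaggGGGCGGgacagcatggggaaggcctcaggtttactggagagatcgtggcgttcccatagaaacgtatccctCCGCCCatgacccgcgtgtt
SRSF4 (chr1:29181901-29182000, minus strand): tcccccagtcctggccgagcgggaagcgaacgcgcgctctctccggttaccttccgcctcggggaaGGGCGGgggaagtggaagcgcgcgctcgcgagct
PTBP3 (chr9:112333027-112333126, minus strand): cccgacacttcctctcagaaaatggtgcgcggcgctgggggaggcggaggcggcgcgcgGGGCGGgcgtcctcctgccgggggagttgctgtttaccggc
SRSF3 (chr6:36594262-36594361, plus strand): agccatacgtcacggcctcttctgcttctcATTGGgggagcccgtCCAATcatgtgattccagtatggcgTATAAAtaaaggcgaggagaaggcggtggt
HNRNPA3 (chr2:177212694-177212793, plus strand): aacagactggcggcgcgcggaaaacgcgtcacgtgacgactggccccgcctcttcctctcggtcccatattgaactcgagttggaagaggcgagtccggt
HNRNPC (chr14:21269443-21269542, minus strand): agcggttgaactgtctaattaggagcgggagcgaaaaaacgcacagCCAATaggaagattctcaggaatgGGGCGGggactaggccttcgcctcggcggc
The GC box was present in 5 of these 7 windows, both windows of SRSF7 among them, and in 31.3% of the 35116 windows of this length that the table holds. A CCAAT box was in 2 of the 7 (18.1% of all windows) and a TATA box in 2 (4.99%). Over all 54 windows of the 34 members with an entry, the shares were 38.9%, 24.1% and 5.56%. No motif was common to all 7, and the HNRNPA3 window held none of the 3.

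Among SR proteins, the largest difference was at SRSF7, a zinc-knuckle SR protein that also takes part in mRNA export and polyadenylation. At probe A_24_P222911 (NM_001031684) the control levels were -0.04, -0.29, -0.14 and -0.10, and the KHSRP siRNA levels -2.18, -2.36, -2.26 and -2.09. The groups lay far apart, and each spread little. The log2 difference was -2.08 (SE 0.111, limma adjusted p = 8.72e-05), or 23.6% of control, with -2.11 on slide 1 and -2.06 on slide 2. Under a background correction with an offset of 50 the difference was -0.85 and was still called. That of SRSF4, described below, was then the larger of the 2, at -1.24.

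The second SRSF7 probe gave another picture. At A_33_P3305840 (NM_001195446) the control levels were 4.29, 4.68, 4.41 and 4.50, and the KHSRP siRNA levels 4.33, 4.30, 4.36 and 4.20. These overlapped, with a difference of -0.17 (95% interval -0.44 to 0.10, adjusted p = 0.497). The levels of the first probe minus those of the second were -4.33, -4.97, -4.55 and -4.61 on the control arrays and -6.52, -6.66, -6.62 and -6.29 on the KHSRP siRNA arrays. This within-array difference fell by 1.91 (SE 0.154, 95% interval -2.26 to -1.56, limma adjusted p = 5.21e-04 over 3363 such differences in 2720 genes). It was the 1 call among 28 differences in the 20 members with several tested probes, where 4.13% of all differences were called. With the offset background correction it was -0.67 (adjusted p = 0.0619). Which transcripts the probes separate, and what fraction of SRSF7 RNA either one reads, cannot be told from these levels.

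SRSF4, an SR protein with a long RS domain, was read by 1 probe, A_23_P126197. Its control levels were 3.93, 3.88, 4.09 and 3.998, and its KHSRP siRNA levels 2.60, 2.64, 2.90 and 2.78. The lowest control array stood well above the highest KHSRP siRNA array. The difference was -1.25 (SE 0.114, limma adjusted p = 0.00104), or 42.2% of control.

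SRSF3, the smallest of the SR proteins and a known regulator of its own splicing, was called at 1 of its 2 probes. At A_33_P3232828 the control levels were 4.65, 4.77, 4.62 and 4.72 and the KHSRP siRNA levels 4.18, 4.31, 4.35 and 4.16. The groups did not overlap, and the difference was -0.44 (SE 0.101, limma adjusted p = 0.0427). It passed the threshold in none of the 8 fits that left out an array (adjusted p 0.0653 to 0.128). At the other probe, A_23_P413761, the difference was -0.15 (95% interval -0.42 to 0.13, adjusted p = 0.601), and the 2 probes were not called as different (adjusted p = 0.282).

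The remaining SR and SR-like genes were not called without a block. With the value table's replicate numbers as a block, 2 probes of SRSF11 (limma adjusted p = 0.00353 and 0.00720) and 1 each of SRSF2 (0.0252), SRSF10 (0.0123), SRSF5 (0.0441) and TRA2A (0.0240) were called lower, and 1 of SRSF6 (0.0400) higher. SRSF2, which binds exonic enhancers through its single RNA-recognition motif, had 2 probes whose groups did not overlap: at A_23_P77776 the levels were 5.25, 5.47, 5.24 and 5.39 with control siRNA and 5.02, 5.08, 5.16 and 4.98 with KHSRP siRNA. The differences were -0.28 at both probes (adjusted p = 0.183 and 0.204). All 3 probes of SRSF11 were below control on average, by -0.44, -0.64 and -0.48 (adjusted p = 0.213, 0.185 and 0.417), with overlapping groups. SRSF5 had differences of -0.13 and -0.23, SRSF9 -0.02, TRA2A -0.28 and TRA2B -0.09 and -0.03. SRSF1, the founding SR protein, differed by 0.00 with a 95% interval from -0.66 to 0.67.

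SRSF10, an SR protein that represses splicing when dephosphorylated, was read by 4 probes, none of which differed from the gene's brightest beyond the threshold (adjusted p = 0.195 to 0.847). The differences were -0.06 at A_32_P45493, -0.19 at A_23_P311201 and -0.43 at A_23_P352291 (adjusted p = 0.834, 0.547 and 0.129). The fourth, A_33_P3303215, had an average difference of 1.13 with an SE of 1.13. Its levels were 2.41, 2.55, -2.88 and 2.46 with control siRNA and 2.31, 2.22, 2.17 and 2.36 with KHSRP siRNA, so control replicate 3 alone set the sign. Without that array the difference was -0.21 (adjusted p = 0.379).

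Among hnRNP A/B proteins, HNRNPA1, an abundant repressor of exon inclusion, was called at A_32_P42197. Its control levels were 6.67, 6.78, 6.71 and 6.83 and its KHSRP siRNA levels 6.22, 6.01, 6.33 and 6.20. The groups did not overlap, and the difference was -0.56 (SE 0.110, limma adjusted p = 0.0241), or 68.0% of control. The call held in 1 of the 8 fits that left out an array, the one without KHSRP siRNA replicate 3, with adjusted p from 0.0547 to 0.0776 in the other 7. The second HNRNPA1 probe, A_24_P517901, had overlapping groups and a difference of -0.03 (95% interval -0.62 to 0.56). HNRNPA1 has many processed pseudogenes, and reads of such copies by either probe cannot be told apart from the gene here.

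HNRNPA3, a close relative of HNRNPA1, had the most probes of any member, all 5 assigned to NM_194247. At the called probe, A_23_P86660, the control levels were 1.95, 2.11, 1.84 and 2.28 and the KHSRP siRNA levels 1.28, 1.42, 1.52 and 1.29. The difference was -0.67 (SE 0.130, limma adjusted p = 0.0222), and the call held in 2 of the 8 leave-one-out fits, namely when control replicate 3 or KHSRP siRNA replicate 3 was dropped. Differences of -0.52, -0.37 and -0.76 at A_24_P269895, A_32_P77502 and A_33_P3422170 did not pass (adjusted p = 0.0593, 0.0758 and 0.104).

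The fifth HNRNPA3 probe, A_24_P706314, stood apart from the other 4. Its levels were 1.22, 1.43, 1.57 and 1.15 with control siRNA and 1.39, 1.46, 1.44 and 1.70 with KHSRP siRNA, a difference of 0.15. Against the brightest probe of the gene, its difference was higher by 0.52 (SE 0.143, adjusted p = 0.0934). Against the mean of the gene's other 4 probes it was higher by 0.73 and passed the threshold (limma adjusted p = 0.0318). Whether this probe reads the same RNA as the others cannot be told from the files.

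The other A/B genes differed by less. HNRNPA2B1 had differences of -0.05 and -0.21, HNRNPA0 -0.21 and HNRNPAB -0.10, none called. The lowest adjusted p among them was 0.379.

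HNRNPC, which binds uridine-rich tracts and keeps cryptic exons out of mRNA, had 3 probes, all with groups that did not overlap. At A_33_P3294017 the control levels were 1.95, 2.003, 1.85 and 1.97 and the KHSRP siRNA levels 1.35, 1.63, 1.53 and 1.42. The difference there was -0.46 (SE 0.107, limma adjusted p = 0.0460), and it passed the threshold in none of the 8 fits that left out an array. The other 2 probes gave -0.36 and -0.35 (adjusted p = 0.0775 and 0.136), so the 3 probes of HNRNPC lay close together.

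HNRNPM, known for its part in epithelial splicing programmes, differed by -0.54 with a 95% interval from -1.16 to 0.08. Its controls alone ran from 2.85 to 3.68. HNRNPR differed by 0.06 and HNRNPUL1 by -0.16. The 2 probes of HNRNPU, a nuclear scaffold protein, differed by -0.03 and 0.00, with intervals as wide as -0.69 to 0.64.

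**Figure D2:**
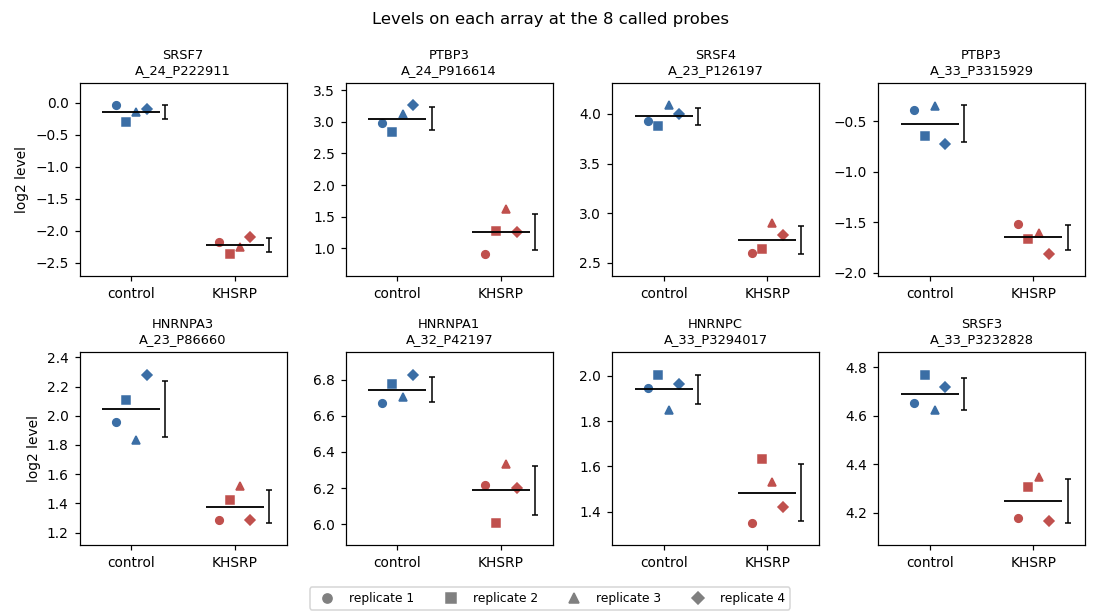
Levels (log2 signal relative to each array's 75th percentile) on the 4 control siRNA and 4 KHSRP siRNA arrays at the 8 called probes, marker shapes giving the replicate number, horizontal lines the means and error bars 1 SD. In every panel all 4 KHSRP siRNA arrays lie below all 4 control arrays. The panels have separate scales, and the gap between groups runs from 2.08 between means at SRSF7 to 0.44 at SRSF3.

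PTBP3, a paralogue of the polypyrimidine tract-binding protein, was the member called at more than 1 probe. At A_24_P916614 the control levels were 2.98, 2.83, 3.13 and 3.26 and the KHSRP siRNA levels 0.92, 1.28, 1.62 and 1.25, a difference of -1.78 (SE 0.169, limma adjusted p = 0.00117), or 29.0% of control. At A_33_P3315929, assigned to another transcript, the control levels were -0.39, -0.64, -0.35 and -0.72 and the KHSRP siRNA levels -1.52, -1.66, -1.61 and -1.81, a difference of -1.13 (SE 0.129, adjusted p = 0.00283). The groups were well separated at both. The second probe's difference was smaller by 0.66 (SE 0.199), which was not called (adjusted p = 0.129). With the offset background correction this dimmer probe differed by -0.44 and stayed called.

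The other genes of this group were not called. PTBP1, the widely expressed tract-binding protein, differed by -0.18 (95% interval -0.79 to 0.42), and PTBP2, its neural paralogue, by -0.27 (interval -0.82 to 0.27). HNRNPL, which binds CA-rich RNA, differed by -0.34 (interval -0.72 to 0.05). Differences between these genes and PTBP3 were not tested. In all 5 probes of the PTBP and hnRNP L group the mean was below control, and with the value table's replicate numbers as a block PTBP2 and HNRNPL were called lower (limma adjusted p = 0.0220 and 0.0133).

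The F/H family, which binds guanine-rich runs, was the one whose median probe difference was above 0 (0.12, 5 probes). HNRNPH3 was the 1 member gene with a probe whose KHSRP siRNA arrays all lay above the controls. At A_23_P115824 the levels were 2.31, 2.55, 2.43 and 2.64 with control siRNA and 2.68, 2.83, 2.87 and 2.87 with KHSRP siRNA, a difference of 0.33 (adjusted p = 0.149). HNRNPH1 went the other way on average, by -0.59 (interval -1.04 to -0.14, adjusted p = 0.131), with overlapping groups. HNRNPF differed by -0.04 and HNRNPH2 by 0.15.

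The poly(C)-binding proteins share KH domains with KHSRP. HNRNPK had 2 probes whose groups did not overlap. At A_24_P389517 the levels were 3.35, 3.35, 3.42 and 3.23 with control siRNA and 2.94, 3.13, 2.88 and 3.10 with KHSRP siRNA, a difference of -0.33 (adjusted p = 0.131), and the other probe gave -0.20. PCBP1 differed by -0.13. The 3 probes of PCBP2 gave -0.11, -0.19 and 0.29, and neither gene was called.

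Among the cell type-restricted regulators, the muscleblind protein MBNL2 had 2 probes of different transcripts, both with groups that did not overlap. At A_24_P56317 the levels were 2.82, 3.18, 2.76 and 3.24 with control siRNA and 1.81, 2.51, 2.66 and 2.09 with KHSRP siRNA, a difference of -0.74 (adjusted p = 0.0874). At A_33_P3391076 they were -0.93, -0.69, -0.83 and -0.44 and -1.33, -1.15, -1.12 and -1.35, a difference of -0.51 (adjusted p = 0.0702), or -0.27 with the offset background correction. Its paralogue MBNL1 differed by 0.12, with an interval from -0.31 to 0.55. QKI, by its 1 detected probe, differed by 0.02, RBFOX2 by 0.25 and -0.04, CELF1 by 0.18 and -0.05, and RBM5 by -0.28, none called.

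Over all members, 18 of the 69 tested probes had groups that did not overlap with KHSRP siRNA lower (26.1%), and 1 had KHSRP siRNA higher. Over all tested probes the shares were 8.69% and 6.09%. The 8 called probes are among the 18. Of the 41 genes, 28 had every tested probe below control on average, 7 had every one above, and 6 had probes on both sides of 0.

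**Figure D3:**
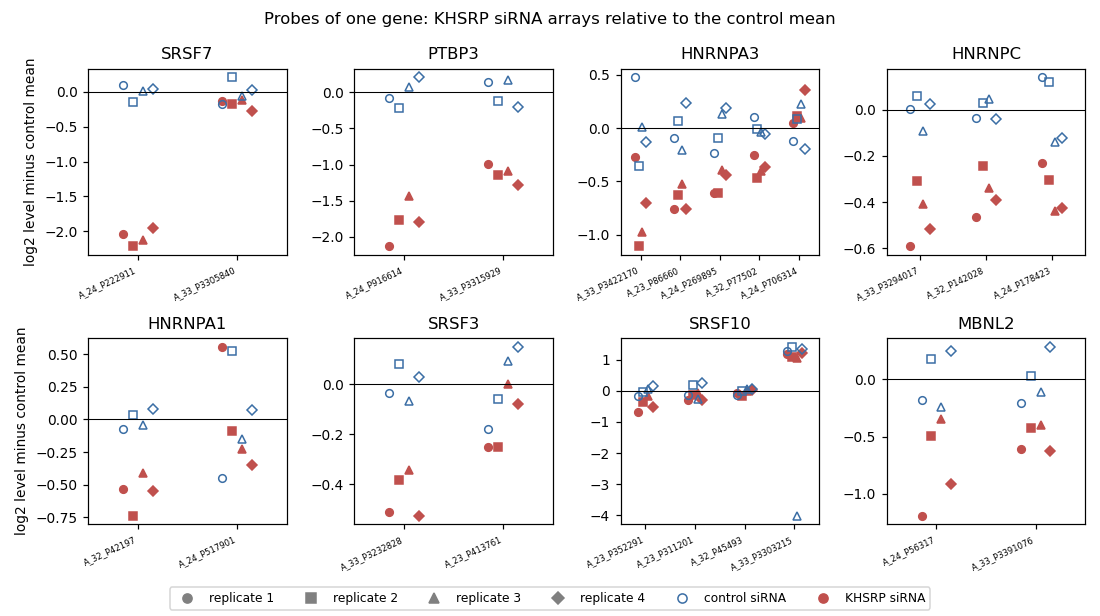
Log2 level minus the mean of the 4 control arrays, for each tested probe of 8 members that have several. Open blue symbols are control siRNA arrays, filled red symbols KHSRP siRNA arrays, shapes the replicate numbers, and panels have separate scales. The SRSF7 probes part by 1.91, 4 of the 5 HNRNPA3 probes lie below the controls on average, and 1 control array sets the fourth SRSF10 probe.

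Some members varied more inside the groups than between them. ESRP1 and ESRP2 maintain epithelial splicing patterns. ESRP2 was at 1.96, 2.32, 1.65 and 2.59 with control siRNA and at 2.21, 3.04, 3.11 and 2.06 with KHSRP siRNA, a difference of 0.47 (95% interval -0.21 to 1.16, adjusted p = 0.456). In each group the 2 arrays with the lower ESRP2 level were those with the higher KRT5 level.

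ESRP1 was at -1.39, -1.08, -2.25 and -0.93 with control siRNA and at -2.16, -0.96, -1.41 and -2.77 with KHSRP siRNA, a difference of -0.41 (interval -1.39 to 0.56). It was well above background on all 4 control arrays and on 3 of the KHSRP siRNA arrays. In each group the arrays with low KRT5 again had the higher ESRP1 level.

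The same order of arrays was seen at SRSF6, SRSF1 and TRA2A, chosen after their values were seen. It was also present at the called probes of SRSF3, HNRNPA3 and HNRNPC, at a probe of SRSF2 and at both of MBNL2, among others. The called probes of SRSF7, SRSF4, PTBP3 and HNRNPA1 did not have it. Probes with this order were not counted, among the members or over all tested probes, so it cannot be called particular to these genes. SRSF6 was at 4.45, 4.72, 4.32 and 5.01 with control siRNA and at 4.53, 5.08, 5.35 and 4.67 with KHSRP siRNA, a difference of 0.28 (interval -0.23 to 0.79), while its probe for a noncoding transcript differed by -0.18. HNRNPU, also picked after its values were seen, did not show the order. At A_23_P160862 it was at 4.05, 4.17, 4.59 and 4.11 with control siRNA and at 4.33, 3.35, 4.33 and 4.80 with KHSRP siRNA. With the value table's replicate numbers as a block, ESRP2 and SRSF6 (adjusted p = 0.0158 and 0.0400) were called higher, with HNRNPH3 and 1 probe of PCBP2 (adjusted p = 0.0184 and 0.0270). Beside the SR genes, PTBP2 and HNRNPL named above, the further probes called lower with this block were those of HNRNPH1, HNRNPM, both MBNL2 probes, 1 probe of HNRNPK, the other 2 probes of HNRNPC and 3 further probes of HNRNPA3, with limma adjusted p from 0.00197 to 0.0168.

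**Figure D4:**
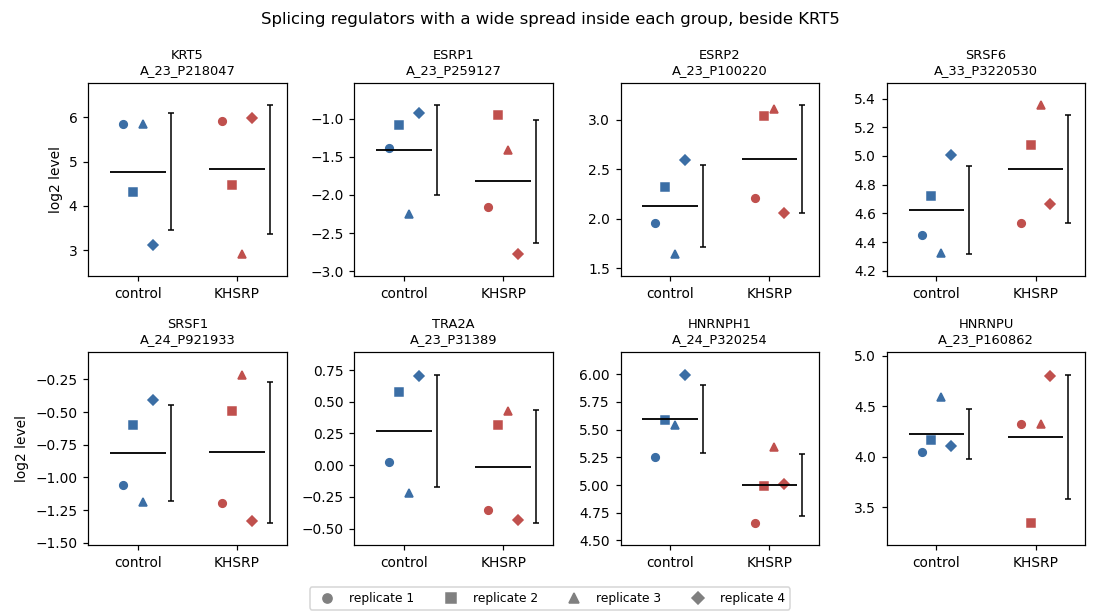
Levels (log2 signal relative to each array's 75th percentile) of KRT5 and of 7 splicing regulators on the 4 control siRNA and 4 KHSRP siRNA arrays, with shapes for replicate numbers, lines for means and error bars of 1 SD. KRT5 splits each group into 2 high and 2 low arrays. ESRP1, ESRP2, SRSF6, SRSF1 and TRA2A are higher on the arrays with low KRT5, and HNRNPU is not. Some probes not drawn, among them the called ones of SRSF3, HNRNPA3 and HNRNPC, have the same order within each group.

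The rest of the splicing machinery was read from 3 further lists, each gene by its brightest tested probe. Of the 8 SR protein kinases, which phosphorylate RS domains, 7 were tested and none was called, with differences from -0.19 to 0.20. Of 47 other splicing regulators 40 were tested, and 2 were called lower and none higher. Counted by any probe, 7 of the 40 had 1 called lower (17.5%), as had 7 of the 41 members (17.1%) and 4.71% of all genes tested. This share rises with the number of probes per gene. The members had 69 tested probes for 41 genes, against 15488 for all 12125 genes. Beside the 2 called at their brightest probe, EWSR1, HNRNPD, HNRNPDL, SRRM2 and TARDBP were called at a dimmer probe, by -0.67 to -0.52. KHDRBS1 (Sam68), a STAR-family regulator, was at 4.88 ± 0.08 (SD, n = 4) with control siRNA and 3.81 ± 0.20 (n = 4) with KHSRP siRNA, a difference of -1.08 (limma adjusted p = 0.00308). TIA1, which helps U1 recognise weak 5′ splice sites, differed by -0.78 (limma adjusted p = 0.00928).

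Of 38 core spliceosome subunits 37 were tested, and again 2 were called lower and none higher. SNRPA1, the U2 A′ protein, was at 3.41 ± 0.09 (SD, n = 4) with control siRNA and 2.21 ± 0.05 (n = 4) with KHSRP siRNA, a difference of -1.20 (limma adjusted p = 7.18e-04). SNRNP70, the U1 70K protein, differed by -0.56 (limma adjusted p = 0.0220). The median differences were -0.02 for the kinases, -0.26 for the other regulators and -0.07 for the core subunits, beside 0.01 for all genes tested and -0.16 for the 41 members. By the brightest probe 4.06% of all genes tested were called lower. With the value table's replicate numbers as a block, 18 of the 40 other regulators were called lower and 2 higher, 5 of the 37 core subunits lower and none higher, and none of the 7 kinases. This block called 15.3% of all tested probes lower and 14.8% higher. Its share over all genes by their brightest probe was not counted.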

How the data were processed

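The members and gene lists were chosen with earlier results of these data known. Per the labels, RNA (0.2 µg) was labelled with Cy3 and hybridised to 1-colour Agilent arrays; the authors' files were written by Feature Extraction (11.5.1.1 in the file headers, 12.6 in the submitters' processing notes). The deposited intensity columns used were the background-subtracted, processed signal and, for 1 alternative, the median spot and background signals. The deposited log2 value table, made by the authors with 75th-percentile scaling, served as an alternative; its columns for KHSRP siRNA replicates 3 and 4 hold the scanner values of each other.

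Control spots and outlier-flagged spots were left out, spots of 1 probe averaged, and log2 signals scaled to each array's 75th percentile. Probes flagged as well above background throughout the 4 arrays of either group were tested with limma 3.58.1 (R 4.3.3; lmFit, eBayes, Benjamini-Hochberg), without a block. Probes of 1 gene were compared by fitting, per array, each probe minus the gene's brightest. The fits were tested on simulated data whose noise was independent between probes, so deviations shared between arrays were not covered. Probes were named through RefSeq accessions (GRCh38.p14): 27241 of 42405 matched. Full values are given for called probes, for the called probe difference and for up to 10 uncalled genes whose groups do not overlap. Some further probes with overlapping groups were chosen after their values were seen. The others are given by their differences. Replicates 1 and 2 of both groups shared slide 1, and 3 and 4 slide 2. The number of arrays, 4 per group, limits the precision.

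Deviations from the group means correlated, over all tested probes, at 0.52, 0.43, -0.67 and -0.64 between same-numbered arrays of the scanner files, and at 0.52, 0.43, 0.83 and 0.84 with the value table's numbers. The value table's numbers thus pair arrays that deviate together, and the scanner files' numbers do not for replicates 3 and 4. Each pair of the value table also shares a high or a low KRT5 level, so its block sets like arrays against each other. The scanner files' numbers pair a high with a low array for replicates 3 and 4. Which source numbers the samples rightly is not given in the sources used here.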

Additional observations from a re-analysis of the deposited data

Results flagged for a closer look

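Among 140 groups of 4 arrays (the 69 tested member probes and KHSRP, in each siRNA group), 5 had 1 array far from the other 3; chance alone gives about 1 in 20 groups. At SRSF10 (A_33_P3303215) control siRNA replicate 3 was at -2.88, with the nearest control at 2.41, and the difference between the siRNA groups went from 1.13 to -0.21 without it. At SRSF6 (A_33_P3238455, the probe assigned to a noncoding transcript) control siRNA replicate 3 was high, at -0.54 with the nearest at -1.11. At HNRNPA2B1 (A_24_P3973) control siRNA replicate 2 was at 5.59, with the nearest at 5.52. At PCBP2 (A_33_P3298492) KHSRP siRNA replicate 4 was low, at 4.78 against 4.94. At TRA2B (A_23_P212639) KHSRP siRNA replicate 4 was high, at 5.11 against 4.87. None of these 5 probes was called with or without the array concerned.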

How the results depend on the processing

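KHSRP differed by -3.37 on slide 1 alone and on slide 2 alone (adjusted p = 0.190 and 0.777), where 2 arrays against 2 gave no call at any probe, and by -3.46 to -3.27 without 1 array. Member probes called lower numbered 8, and became 5 with scaling to the median, 4 with no filter on dim probes, 0 on either slide alone, and 4 to 6 without 1 array. With the scanner files' replicate numbers as a block (2 of its 4 pairs correlate below 0) there were 4, and with the value table's numbers 26. None was called higher, except 4 under the latter block. Student's t-test, which the paper's methods name in general but not for the arrays, called 10 lower and none higher after adjustment. Before adjustment the numbers were 22 and 1, a count not made over all probes. Over all tested probes, calls lower numbered 679 in the main fit and 702 under the t-test. They numbered 472 with scaling to the median, 233 of 42405 with no filter on dim probes and 354 to 548 without 1 array. With the scanner files' block there were 126 such calls, and with the value table's block 2863. The members' median of -0.16 became -0.23 with scaling to the median and -0.24 on slide 1 alone, and ran from -0.19 to -0.10 without 1 array. Probe differences called within a member gene numbered 1, that of SRSF7. With the offset background correction they became 2, neither being that of SRSF7 (-0.67, limma adjusted p = 0.0619). They became 2 against the mean of the other probes, 2 with diffSplice, 4 with the value table's numbers as a block and 0 on either slide alone. They numbered 1 without any 1 array. Over all genes, 139 such differences were called in the main fit, 117 with the offset background correction and 321 with the value table's block. Over all probes, 34.6% of calls were higher, or 17.2% with scaling to the median. With scaling to the median, the median difference over all tested probes also went from 0.01 to -0.06. The members' median probe difference minus that median was -0.20 under both scalings. The cause of the shifts in this section was not tested. Differences near 0, as at SRSF1, SRSF9, HNRNPU, HNRNPR and QKI, changed sign between scalings. For the probes named as called or as not overlapping and the SRSF7 difference, 381 of 460 alternative values kept their direction and side of the threshold, and 0 reversed. All these results had groups that did not overlap, so fits on fewer arrays could not reverse them, and the 0 is no support. The 381 include uncalled probes that stayed uncalled. The 60 values that lost a call were all at the called probes and the SRSF7 difference, and 19 others gained one.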
